A study of Homo sapiens with 4 samples.

Results

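Chromosome 4 was described through the 500 bp windows that a 5hmC-Seq table, deposited on the human genome build hg19, lists for it. 5-hydroxymethylcytosine (5hmC) is the base that the TET dioxygenases make from 5-methylcytosine, and hMeDIP-Seq enriches DNA fragments that carry it before sequencing. Of the 956365 rows of the table, 25801 lie on chromosome 4, or 2.70%. All rows with this chromosome name were taken, and the chromosome was chosen by its listing, the lowest of the 22 autosomes. Its listing values are therefore given as a description without a test. FADU cells, a line from a human squamous carcinoma of the hypopharynx, supplied all 4 libraries of the study, 1 for each condition. The scrambled control and the TET1-si cells, in which TET1 was knocked down by a lentiviral hairpin, were each kept under normoxia or under hypoxia. Hypoxia was 1% oxygen and lasted 18 h for scrambled cells and 19 h for TET1-si. The names of the 4 value columns match no sample, so no value of a library was used and no condition could be compared. The sample titles name hMeDIP-Seq, the sample descriptions an antibody to 5-methylcytidine, and the methods a chemical labelling of 5hmC, so which mark was enriched is not certain from these sources. A listed window is a window with a row in the table. The rule by which windows entered the table is not given in the sources used here, and a window without a row is not shown to lack reads.

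In DNA of differentiated cells 5hmC is found mostly in the bodies and at the flanks of active genes and at enhancers, whereas CpG islands at active start sites carry little methylated or hydroxymethylated cytosine. Both bases sit almost entirely at CpG sites, so the number of CpG sites in a window limits what an enrichment can retrieve from it. Chromosome 4 is rich in A and T, poor in genes over long stretches of its long arm, and dense in genes near the end of its short arm. It carries TET2, the gene of another TET dioxygenase, the fibroblast growth factor receptor gene FGFR3, and clusters of genes for UDP-glucuronosyltransferases, caseins, albumin and CXC chemokines.

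The sequences below show what listed and unlisted windows of the chromosome look like. Each is the middle 300 bases of a window, read 5′ to 3′ on the plus strand of GRCh37, whose coordinates are those of hg19 here, and CpG sites are in capitals. They were taken from windows that overlap no annotated exon. The first set shows promoters, with the listed promoter window that has the most CpG sites in TET2 and in FGFR3 and the unlisted one with the most in NKX6-1, a homeobox gene of pancreatic and neural development.
TET2 promoter, listed, chr4:106066601-106066900: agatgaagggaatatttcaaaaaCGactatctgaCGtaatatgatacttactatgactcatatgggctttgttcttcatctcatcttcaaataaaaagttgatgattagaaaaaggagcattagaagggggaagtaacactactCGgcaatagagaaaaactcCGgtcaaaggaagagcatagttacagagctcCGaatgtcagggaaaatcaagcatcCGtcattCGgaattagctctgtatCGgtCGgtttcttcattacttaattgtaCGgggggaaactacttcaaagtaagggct
FGFR3 promoter, listed, chr4:1794601-1794900: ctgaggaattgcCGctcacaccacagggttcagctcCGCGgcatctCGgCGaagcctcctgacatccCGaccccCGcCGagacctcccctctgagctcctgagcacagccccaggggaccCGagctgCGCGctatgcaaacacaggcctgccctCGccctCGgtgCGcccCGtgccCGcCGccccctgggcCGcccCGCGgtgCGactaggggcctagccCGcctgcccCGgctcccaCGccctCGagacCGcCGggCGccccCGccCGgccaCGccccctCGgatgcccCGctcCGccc
NKX6-1 promoter, unlisted, chr4:85420601-85420900: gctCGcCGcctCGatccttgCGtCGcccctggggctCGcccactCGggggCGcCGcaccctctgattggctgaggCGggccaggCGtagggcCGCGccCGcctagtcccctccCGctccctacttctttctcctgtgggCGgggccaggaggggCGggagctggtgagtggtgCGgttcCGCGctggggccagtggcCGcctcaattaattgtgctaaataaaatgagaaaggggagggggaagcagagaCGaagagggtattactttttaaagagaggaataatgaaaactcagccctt
The 3 windows held 14, 62 and 37 CpG sites. The unlisted NKX6-1 window thus had more CpG sites than the listed window of TET2 and fewer than that of FGFR3.

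The second set shows gene bodies and a region without genes. The SH3TC1 window lies in the longest run of listed windows and had 24 CpG sites. The FAT1 window, in the body of the gene of a large cadherin, had 12 CpG sites and 43.0% G and C bases. It was picked by its likeness in CpG number and GC content to an unlisted intron window of another gene, not shown. It is therefore not a typical window of FAT1. The last window is the middle of the longest stretch without a listed window and had 0 CpG sites.
SH3TC1 intron, listed, chr4:8202101-8202400: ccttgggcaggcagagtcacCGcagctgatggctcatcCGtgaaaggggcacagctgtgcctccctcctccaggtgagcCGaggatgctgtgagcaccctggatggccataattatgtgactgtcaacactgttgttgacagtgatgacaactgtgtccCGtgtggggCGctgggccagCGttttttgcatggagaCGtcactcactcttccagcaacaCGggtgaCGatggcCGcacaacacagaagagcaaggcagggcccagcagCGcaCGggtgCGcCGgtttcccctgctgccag
FAT1 intron, listed, chr4:187573101-187573400: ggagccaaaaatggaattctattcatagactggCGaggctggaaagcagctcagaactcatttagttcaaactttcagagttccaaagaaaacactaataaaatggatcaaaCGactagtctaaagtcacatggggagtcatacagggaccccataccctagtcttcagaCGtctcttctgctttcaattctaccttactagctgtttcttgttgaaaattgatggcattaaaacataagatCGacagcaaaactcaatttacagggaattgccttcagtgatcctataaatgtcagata
Longest stretch, unlisted, chr4:136835601-136835900: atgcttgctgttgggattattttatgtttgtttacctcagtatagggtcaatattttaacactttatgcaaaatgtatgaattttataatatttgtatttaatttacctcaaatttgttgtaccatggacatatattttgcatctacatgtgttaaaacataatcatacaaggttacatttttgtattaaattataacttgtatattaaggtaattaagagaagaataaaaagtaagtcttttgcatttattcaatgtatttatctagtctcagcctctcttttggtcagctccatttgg
In the class of CpG number and GC content of the FAT1 window, 29.1% of the windows of the other autosomes were listed.

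On chromosome 4, 25800 of the 375312 windows without an undetermined base were listed, or 6.87% (Wilson 95% interval 6.79 to 6.96). This was the lowest share of all 22 autosomes, followed by chromosome 18 with 8.84% and chromosome 13 with 10.3%. Chromosome 22 had the highest share, 43.3%. The interval covers counting only and treats windows as independent, which neighbouring windows are not. Chromosome 4 also had the lowest mean CpG number per window, 3.93, and the lowest GC content, 38.2%. To allow for this, an expected share was taken for each window as the listed share of windows on the 21 other autosomes with the same CpG number and a like GC content. The expected share of chromosome 4 was 13.2%. The ratio of listed to expected windows was 0.521, again the lowest of the 22 autosomes. Chromosome 18 was just above it at 0.565, then came chromosome 2 at 0.654. The 3 autosomes nearest to it in CpG number were chromosomes 3, 13 and 5, with ratios of 1.03, 0.745 and 0.923, and chromosome 14 was the highest at 1.83. Set against all windows of the other autosomes, without regard to composition, the ratio was 0.374. An expected share from chromosomes 3, 13 and 5 alone gave a ratio of 0.575.

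The deficit ran along the whole chromosome. Of its 39 regions of 5 Mb, all 39 had fewer listed windows than expected, with ratios from 0.187 to 0.879 and a median of 0.462. In 25 of the 39 regions (64.1%) the ratio was below 0.5, against 76 of 524 regions (14.5%) of the other autosomes. Among those 524 regions, 208 (39.7%) were above 1. No other autosome had a median below 0.5, and the nearest were chromosome 18 with 0.523 and chromosome 2 with 0.569. The listed share of the regions ranged from 1.61% to 32.01% with a median of 5.97%.

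**Figure D1:**
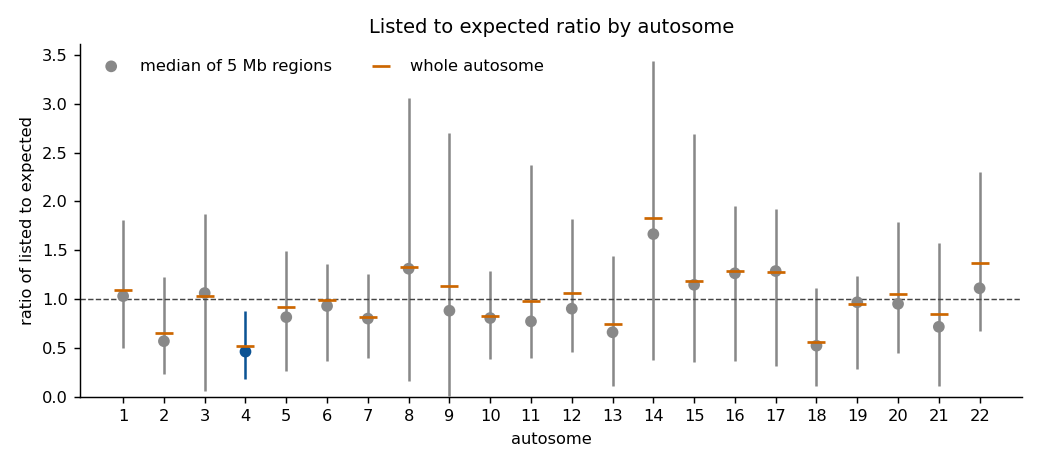
Ratio of listed to expected windows (y axis) for the 22 autosomes (x axis). Vertical lines run from the lowest to the highest 5 Mb region, circles are the median region and orange bars the whole autosome; the dashed line marks 1. Chromosome 4, in blue, lies wholly below 1, with regions from 0.187 to 0.879.

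The highest ratios lay at the end of the short arm. The region from 0 to 5 Mb had 3159 listed windows, 32.01% against 36.4% expected, a ratio of 0.879. The next 5 Mb had 2509 listed windows and a ratio of 0.721, and the third highest region, from 35 to 40 Mb, had 1033 and a ratio of 0.715. The 3 lowest regions were those from 130 to 135 Mb with 161 listed windows and a ratio of 0.187, from 60 to 65 Mb with 169 and 0.204, and from 90 to 95 Mb with 249 and 0.279. These 3 regions contain the starts of 3, 1 and 7 protein-coding genes, against 64, 55 and 24 in the 3 highest, given here from 0 Mb on. The 55 genes from 5 to 10 Mb include the 20 USP17L genes, near-identical copies in a tandem array. Of the 55 genes, 24 had no listed window in body or promoter. The region from 60 to 65 Mb holds a single gene start, that of ADGRL3, an adhesion receptor of neurons, of whose 1756 windows 35 were listed, a ratio of 0.22. In the region from 130 to 135 Mb the protocadherin gene PCDH10 had 2 of 91 windows listed. The region from 90 to 95 Mb holds the long gene CCSER1, with 66 of 2956 windows listed.

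Regions that were expected to be listed more were so, but also came nearer to the expectation. Over the 39 regions, Spearman's rank correlation was 0.899 between the listed and the expected share, 0.703 between the ratio and the expected share, and 0.689 between the ratio and the number of protein-coding genes that start in the region. The regions share libraries and neighbouring sequence, and CpG number, gene number and position near the short arm's end go together, so these values are a description.

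**Figure D2:**
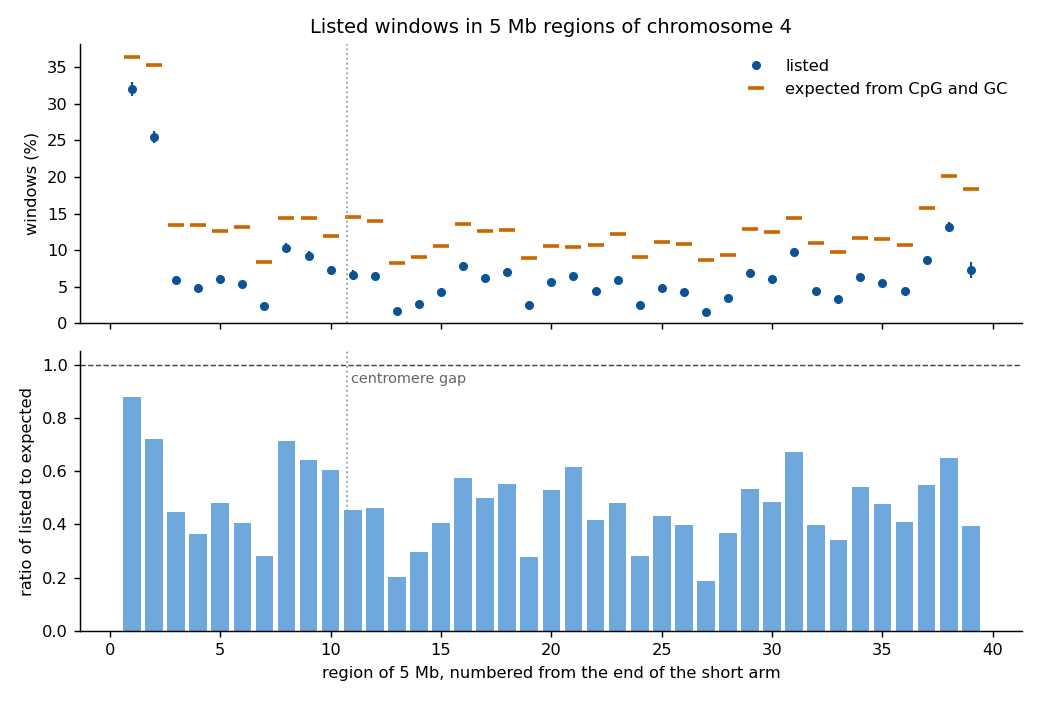
The 39 regions of 5 Mb of chromosome 4 in order from the end of the short arm. The upper panel gives the percentage of windows listed (blue, with Wilson 95% intervals) and expected (orange), and the lower panel their ratio, with 1 as a dashed line and the centromere gap as a dotted line. Every bar ends below 1, and the first bar, 0.879, is the tallest.

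The arms differed. The short arm had 10.9% of its windows listed and a ratio of 0.626, and the long arm 5.44% and 0.465. This difference rested largely on the first 10 Mb, which make up 5.26% of the windows of the chromosome and 21.97% of its listed windows. There 28.7% of windows were listed, against 35.8% expected, a ratio of 0.802. Without these 10 Mb the short arm had a ratio of 0.503, near that of the long arm. The last 10 Mb of the long arm had 11.4% of windows listed and a ratio of 0.602, and the long arm without them 0.447. The short arm's ratio was 1.35 times that of the long arm, and 1.13 times without the first and last 10 Mb of the chromosome.

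At 1 Mb, 3 of 189 regions had a ratio above 1. They were those from 1 to 2 Mb (946 listed windows, ratio 1.10), from 2 to 3 Mb (751, 1.06) and from 169 to 170 Mb (310, 1.09). The first holds FGFR3, TACC3, CTBP1 and the start of NSD2, and the last holds PALLD, the gene of the actin-associated protein palladin. The lowest ratio, 0.107, was found from 64 to 65 Mb, where 16 of 2000 windows were listed and no protein-coding gene starts. Within the first 10 Mb the listing was uneven, with ratios of 0.953 in both regions between 7 and 9 Mb and 0.246 in the tenth megabase. In the tenth megabase only 29.9% of the windows were unique sequence, meaning that each of 5 sequences of 50 bases taken from the window occurs at a single place in the genome. The study kept uniquely aligned reads of 50 bases. Among unique windows alone the ratio of this megabase was 0.371, so it was below 1 there too.

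Listed windows of chromosome 4 had more CpG sites than unlisted ones, on average 7.89 against 3.63, with medians of 6 and 3, and a GC content of 45.3% against 37.7%. The listed share rose with the CpG number, from 0.635% of windows with 0 CpG sites to 30.5% of those with 15 to 19, and was lower in the richest windows, 17.7% at 40 or more. The other autosomes had the same shape at a higher level, so that windows of the same composition were expected to be listed at 1.77%, 48.2% and 30.7%. The ratio was below 1 in each of the 11 classes of CpG number. It was lowest where CpG sites were fewest, 0.360 at 0 and 0.403 at 1, and highest at 0.633 for 15 to 19 sites. Chromosome 18 had a like course at low CpG numbers, from 0.364 at 0 to 0.589 at 15 to 19 sites, but had its highest ratio, 0.690, at 30 to 39 sites, where that of chromosome 4 was 0.560. Chromosome 14, the most densely listed for its composition, ran the other way, with 2.82 at 0 sites and 1.12 at 20 to 29.

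**Figure D3:**
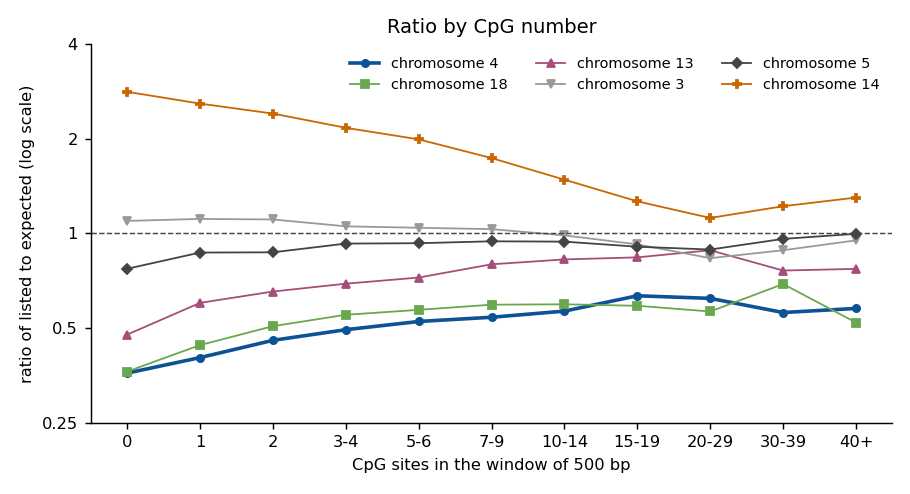
Ratio of listed to expected windows (y axis, log scale) by the number of CpG sites in the 500 bp window (x axis) for chromosome 4 and 5 other autosomes. Chromosome 4, the thick blue line, climbs from 0.360 at 0 sites to 0.633 at 15 to 19 and stays below 1, whereas chromosome 14 falls from 2.82 to 1.12 at 20 to 29.

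Windows were then sorted by their place in the annotation, each into the first that applied of promoter (3000 bp upstream of the start of the canonical transcript of a protein-coding gene), exon, intron, other annotated gene, and no annotated gene. On chromosome 4, 927 of 4431 promoter windows were listed (20.9%, 19.7 to 22.1), 13.4% of exon windows, 9.68% of intron windows, 5.02% of windows in other annotated genes and 5.05% of windows outside any gene. The ratios in this order were 0.892, 0.705, 0.672, 0.407 and 0.414. On the other autosomes they were 1.38, 1.12, 1.16, 0.887 and 0.876. The order of the classes was thus much the same on both sides, with protein-coding genes above the rest, and chromosome 4 lower in every class. On chromosome 13, which is also poor in CpG sites, the promoter ratio was 1.22 and the ratio outside genes 0.598. Windows outside any gene make up 41.7% of the windows of chromosome 4 and gave 30.6% of the listed ones, and introns make up 32.8% and gave 46.2%.

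Around the start sites of the 755 protein-coding genes, the listed share of chromosome 4 had a dip at the start between 2 shoulders. From 1000 to 500 bp upstream 214 of 755 windows were listed (28.3%, 25.2 to 31.7), in the first 500 bp downstream of the start 100 of 755 (13.2%, 11.01 to 15.9), and from 1500 to 2000 bp downstream 186 of 754 (24.7%, 21.7 to 27.9). These intervals cover counting only. The places compared belong to the same genes, and a window near several starts was counted for each, so no test was made. The mean CpG number was highest in the dip, 34.2 per window, so that the ratio fell further there than the share did, to 0.422, from 1.04 and 1.17 in the shoulders. The other autosomes had the dip too, with ratios of 1.46, 0.723 and 1.56 at the same places. Chromosome 4 was lower at each distance from the start. The upstream shoulder of chromosome 4 was at the expectation, 28.3% against 27.4%, and the downstream one above it, 24.7% against 21.0%.

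**Figure D4:**
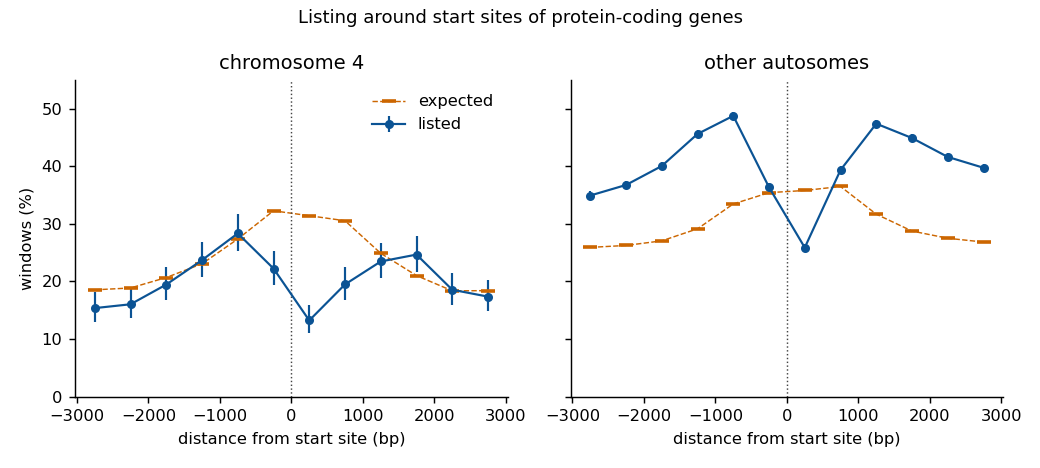
Percentage of windows listed (blue, with Wilson 95% intervals) and expected from CpG number and GC content (orange) in 500 bp steps around the start sites of protein-coding genes, on chromosome 4 (left) and on the other autosomes (right). Listing dips just downstream of the start in both, to 13.2% on chromosome 4 and 25.9% on the others.

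A listed window in the promoter was found for 432 of the 755 genes (57.2%). If the windows of a promoter were listed independently at their expected shares, 571 (75.7%) would be expected. Since listed windows lie in runs, such expected numbers of genes, here and for the gene lists below, tend to be too high. By window, 20.9% of promoter windows were listed against 23.5% expected, and on the other autosomes 40.4% against 29.5%. On the other autosomes 14098 of 18216 genes had one (77.4%, with 83.5% expected), and on chromosomes 3, 13 and 5 the shares were 78.6%, 68.5% and 73.2%. Genes on chromosome 4 whose start window had 30 or more CpG sites had a listed promoter window in 68.3% of cases (315 of 461), those with 10 to 29 sites in 43.9% (61 of 139) and those with 0 to 9 sites in 36.1% (56 of 155). For the same classes the other autosomes gave 84.6%, 76.8% and 53.1%. The middle class was the farthest below its expected share, 43.9% against 78.7%. However, this class of 139 genes holds the 20 USP17L genes, near-identical copies in a tandem array. Of these 20 genes 19 had no listed window, and 1.13% of their windows were unique sequence. Their part in the low share of the class was not tested. The start window itself was listed in 121 genes of chromosome 4 (16.0%) and in 27.9% of genes elsewhere. All promoter windows were listed in 8 of the 755 genes of chromosome 4, against 1396 of 18216 on the other autosomes. The 8 are FGFR3, HGFAC, DOK7, AFAP1 and SH3TC1, which start in the first 10 Mb, and SLC2A9, CHRNA9 and TMEM154, which start beyond it.

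No listed window was found in the body or promoter of 84 genes of chromosome 4 (11.1%, against 6.72% on the other autosomes). Of these, 25 lie in the first 10 Mb, where listing was densest. They include 19 of the 20 USP17L genes, near-identical copies of a deubiquitinase in a tandem array. Of their windows 1.13% were unique sequence. AREG, an EGF family ligand, had no unique window among its 19 and none listed. For these genes the absence from the table is uncertain, and the part of repeated sequence in it was not tested. The 84 genes together had 68.1% unique windows and the 671 genes with a listed window 86.0%. MTTP, which loads lipid on lipoproteins, had 98 windows of which 90.8% were unique and 0 were listed.

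Genes were next compared by the windows from their start to their end. Genes that overlap share windows. Among the 10 genes with the most listed windows were SORCS2, a sorting receptor of neurons, with 381 of 1100, PALLD with 201 of 863, AFAP1, an actin filament-associated protein, with 188 of 362, and ENSG00000282278, a gene model that overlaps PDGFRA, with 175 of 1835. They were followed by RBM47, an RNA-binding protein, with 163 of 413, KCNIP4, a potassium channel subunit, with 152 of 2441, ARHGAP10, a GTPase-activating protein, with 144 of 682, FAM193A with 131 of 392, and FAT1 with 129 of 272. Of the genes named here SORCS2, AFAP1 and FAM193A lie in the first 10 Mb.

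Among the 188 genes of 100 kb or more the median ratio was 0.565, and 29 were above 1. The 10 highest were FAT1 (2.07), NSD2, a histone H3 lysine methyltransferase (1.77), GALNT7, an enzyme of O-linked glycosylation (1.74), SH3RF1, a ubiquitin ligase (1.73), RBM47 (1.65), AFAP1 (1.59), PDLIM5, a PDZ and LIM domain protein of the cytoskeleton (1.58), VEGFC, the growth factor of lymphatic vessels (1.45), PALLD (1.45) and TRIM2, a ubiquitin ligase (1.36). NSD2 and AFAP1 lie in the first 10 Mb, RBM47 lies farther along the short arm, PDLIM5 in the long arm, and the other 6 in the far part of the long arm, from TRIM2 to FAT1. In FAT1, 47.4% of windows were listed, in the last 10 Mb of a chromosome of which 6.87% was. Its mean CpG number was 7.84, and 62.3 of its windows were expected to be listed.

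The 10 lowest were TECRL, an enoyl reductase-like gene active in the heart, with 1 of 263 windows (0.054), SCLT1, a centriole protein, with 3 of 419 (0.073), CLCN3, a chloride and proton exchanger of endosomes, with 3 of 207 (0.12), TBCK with 6 of 549 (0.12), GBA3, a cytosolic beta-glucosidase, with 4 of 253 (0.12), RAB28, a small GTPase, with 3 of 233 (0.13), TTC29, a protein of the sperm flagellum, with 6 of 478 (0.13), NDST4, an enzyme of heparan sulfate synthesis, with 6 of 572 (0.14), NPFFR2, a neuropeptide receptor, with 3 of 233 (0.14), and GRIA2, an AMPA receptor subunit, with 4 of 290 (0.17). TECRL and GRIA2 had 92.4% and 91.7% unique windows, as many as FAT1 with 91.2%. None of the 188 long genes was without a listed window.

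Lists of genes of chromosome 4 were set beside these values. Over the 603 protein-coding genes with 20 or more windows, the median ratio was 0.568 and 119 genes (19.7%) were above 1. TET2, which oxidises 5-methylcytosine, had 4 of its 6 promoter windows listed, with 1.43 expected, and 15 of 266 windows of its body, a ratio of 0.61. Its start window, with 15 CpG sites, was unlisted.

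The 25 genes of distal 4p16 had a pooled ratio of 1.05, a median of 1.09 over the 22 members with 20 or more windows, and a listed promoter window in 20 of 25, with 23.4 expected. All 6 promoter windows of FGFR3 were listed, with 2.84 expected, and 24 of the 31 windows of its body. CTBP1, a transcriptional corepressor, had 66 of 76 windows listed (1.48), MAEA 76 of 101 (1.48), DGKQ, a diacylglycerol kinase, 27 of 30 (1.45), and NSD2 124 of 222 (1.77). The zinc finger genes of the same end were uneven. ZNF595 had 21 of 70 windows listed, a ratio of 2.16, and ZNF732, on the other side of ZNF718, had 0 of 70, with 77.1% and 71.4% unique windows. ZNF718 had 2 of 67. ZNF721 had 2 of 118. HTT, the huntingtin gene, had 67 of 338 (0.67).

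The other end of the chromosome, with 8 genes of 4q35 found in the annotation, had a pooled ratio of 1.00, but the median over its 7 longer members was 0.515. FAT1 accounted for 129 of the 202 listed windows of this list. SORBS2, an adaptor of actin filaments, had 55 of 454 (0.62), KLKB1, plasma prekallikrein, 2 of 62 (0.18), and F11, coagulation factor XI, 0 of 47. FAT1 likewise gave 129 of the 244 listed windows of the 6 protocadherins and FAT cadherins, whose pooled ratio was 0.989 and median 0.604. In the promoters of these cadherins 3 of 36 windows were listed, 8.33% against 27.9% expected, and FAT1 itself had 0 of 6.

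The 11 homeobox and other developmental transcription factors had 12 of 66 promoter windows listed, 18.2% against 33.3% expected, in 7 of 11 genes, with 9.99 expected. NKX6-1 and LEF1 had 0 of 6 each, and MSX1, NKX3-2, HMX1, GSX2 and NEUROG2 had 2 of 6. Their start windows held from 6 to 80 CpG sites with a median of 41, and 1 of the 11, that of GSX2, was listed, against 16.0% of all genes of the chromosome.

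The 7 tyrosine kinase genes and FGFRL1, an FGF receptor-like gene, had 22 of 48 promoter windows listed, 45.8% against 27.5% expected. Of the 22, FGFR3 gave 6 and FGFRL1 5, and both genes are also in the list of distal 4p16. The pooled body ratio of the list was 0.743. The bodies of its genes ranged from TXK, a T-cell kinase, with 37 of 136 (1.77), to KDR, the VEGF receptor of endothelium, with 1 of 95 (0.06). KIT had 14 of 166 (0.49) and PDGFRA 19 of 138 (0.72), with 4 of its 6 promoter windows listed. KDR was 97.9% unique. The 5 EGF family ligands had a pooled ratio of 0.951, which rested on EREG, epiregulin, with 18 of 47 windows listed and a ratio of 3.28, the value farthest to the right in the plot of gene lists. EREG and EPGN had 3 of 6 promoter windows listed each, and BTC and EGF had 0.

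The lowest list was the UGT2 cluster of glucuronosyltransferases, enzymes that conjugate steroids and drugs in the liver, with 6 of 459 body windows listed, 1.31% against 7.54% expected, a ratio of 0.173. UGT2B10, UGT2A3, UGT2B11 and UGT2B28 had no listed window, with 1.52 to 2.75 expected in each body. Of the windows of this cluster, which holds similar copies, 60.6% were unique, and the part of repeated sequence in the low ratio was not tested. The albumin family (ALB, AFP, AFM and GC) had 0 of 24 promoter windows listed, with 7.43% expected, or 0.36 to 0.65 windows per gene. At so low an expectation a count of 0 says little. The body ratio of this family was 0.437, with 92.1% of windows unique. The 13 CXC chemokines had 4 of 68 body windows listed (0.376) and a listed promoter window in 5 genes, with 7.80 expected. CXCL8, CXCL6, PF4V1, PPBP, CXCL3 and CXCL13 had no listed window in body or promoter, as had 11.1% of all genes of the chromosome. Their bodies are short, with 2 to 12 windows and 0.18 to 1.48 expected to be listed. The 7 alcohol dehydrogenases had a ratio of 0.400, the 3 fibrinogen chains 0.499, and the 21 casein, salivary and enamel genes 0.576 with a listed promoter window in 4, where 8.52 were expected. The median of the 10 longer members of this last list was 0.379. In it DMP1 and MEPE, of bone and dentin, had 7 of 28 and 6 of 28 windows listed (1.84 and 1.79). No listed window was found in 10 genes, among them CSN1S1 and CSN2, with 1.41 and 1.09 body windows expected.

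The lists of nervous system genes also had pooled ratios below the chromosome's 0.521. The 4 GABA receptor genes had 49 of 1408 windows listed, a ratio of 0.401, and a listed promoter window in 1 of 4, GABRA2, with 3.06 expected. The 11 nervous system genes had a pooled ratio of 0.411, but ADGRL3 (0.22) held 1756 of their 3121 windows. The median of the 7 longer members was 0.487, from 0.17 in GRIA2 to 0.90 in UCHL1. A promoter window was listed in 6 of 11, with 8.80 expected, a share near that of all genes of the chromosome (57.2%). The 11 long genes had a pooled ratio of 0.508, and SORCS2 (0.76) was the highest of them. Of the 7 cytokine genes of 4q27 and their neighbours, FGF2 had a listed promoter window, with 3 of 6, and the pooled ratio was 0.422. The pooled ratio was above the chromosome's 0.521 in the 14 sterol and lipid genes (0.724, promoter window in 8, with 10.1 expected), the 5 Toll-like receptors (0.679, in 5, with 3.97 expected) and the 13 tumour suppressor and cell cycle genes (0.876, in 8, with 10.1 expected). NSD2 gave 124 of the 255 listed windows of the last list, and the median of its 10 longer members was 0.601. The median of the 12 longer lipid genes was 0.447, below the chromosome's ratio. Most of their listed windows lay in 3 genes, for ELOVL6, a fatty acid elongase, had 49 of 306 windows (1.05), ACSL1, an acyl-CoA synthetase, 38 of 141 (1.04), and SCD5, a desaturase, 58 of 339 (0.83). The others were mostly low, such as PPARGC1A, a coactivator of mitochondrial genes, with 10 of 196 (0.37), HPGDS, a prostaglandin synthase, with 4 of 89 (0.36), and MTTP with 0 of 98.

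**Figure D5:**
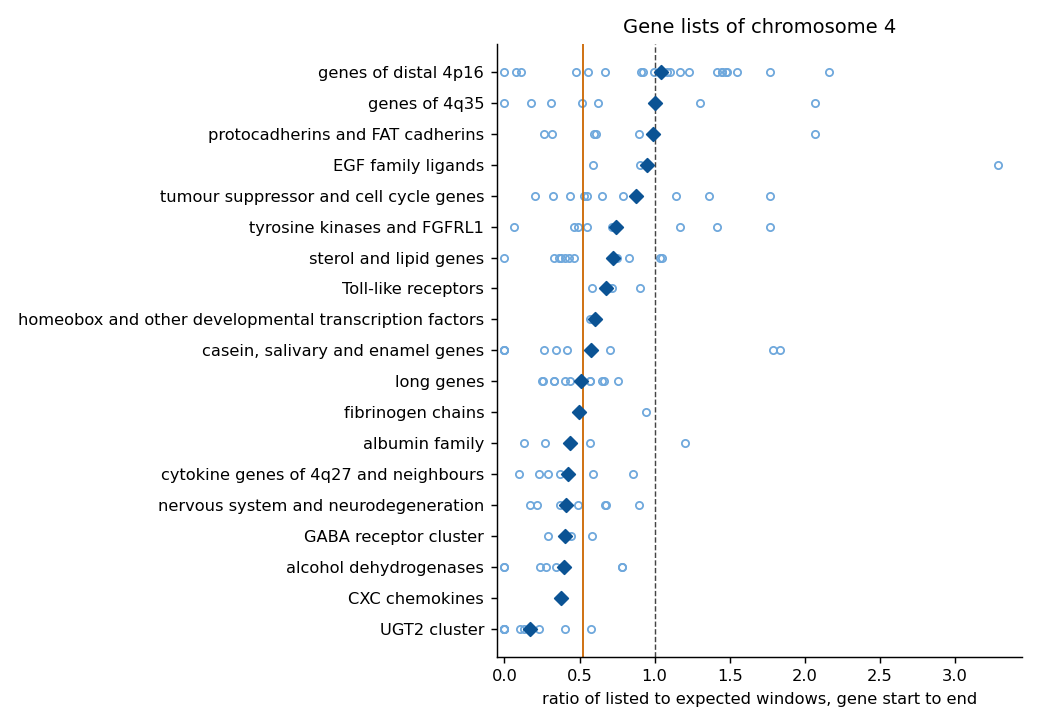
Ratio of listed to expected windows from gene start to end (x axis) for 19 lists of genes of chromosome 4 (y axis). Open circles are genes with 20 or more windows, diamonds the pooled ratio of the list; the orange line marks the whole chromosome (0.521) and the dashed line 1. The lists run from 0.173 in the UGT2 cluster to 1.05 in distal 4p16, and EREG stands at 3.28.

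Listed windows of chromosome 4 lay in 13932 runs of adjacent windows, of which 7222 (51.8%) were a single window. On chromosome 14 single windows made up 38.3% of runs, and on chromosomes 3, 13, 5 and 18 between 45.1% and 46.5%. A run of chromosome 4 held 1.85 windows on average, against 3.29 on chromosome 14. Runs of 10 or more windows numbered 96, of which 76 lay in the first 10 Mb and 5 in the last 10 Mb. The longest covered 24.0 kb, chr4:8185501-8209500, from upstream of SH3TC1 into the gene, with 48 windows that averaged 13.2 CpG sites. The next were 21.0 kb in DOK7, which organises the neuromuscular junction, 20.0 kb reaching into AFAP1, 16.5 kb in CTBP1 and 16.0 kb across NSD2 and NELFA. Joined over single unlisted windows, the longest run was 43.5 kb, chr4:1751501-1795000, and ended at the start of FGFR3. A run of 13 kb, chr4:49146001-49159000, lay close to the centromere, 81.9 kb from the nearest gene, CWH43. In it 15.4% of the windows were unique.

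Stretches of 100 kb or more without a listed window numbered 156 on chromosome 4, against 96, 82, 55, 58 and 7 on chromosomes 3, 13, 5, 18 and 14, which differ in length. They covered 11.2% of its bases, less than the 23.9% on chromosome 18 and 13.7% on chromosome 13. This was more than the 10.1%, 5.06% and 1.49% on chromosomes 3, 5 and 14. On chromosome 4 108 of them held no protein-coding gene. In the first 10 Mb there were 2. The longest was 399 kb, shorter than the longest on chromosomes 3, 13, 5 and 18, which ranged from 521 to 4094.5 kb. It was chr4:136636001-137035000, with the nearest gene, the protocadherin gene PCDH18, 1405 kb away. Its 798 windows averaged 2.61 CpG sites, 92.6% were unique, and 55.9 listed windows would have been expected. The next were 286 kb, chr4:34213501-34499500, 1568 kb from ARAP2, and 254 kb, chr4:63991001-64245000, 898 kb from TECRL. The fifth, 249.5 kb, ran through SCLT1 and C4orf33, with 50.9 listed windows expected.

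Unique sequence was judged by exact matches alone, so repeats whose copies differ in sequence can count as unique. The content of repeats was not measured, and its part in the low listing was not tested. Windows of unique sequence were not rarer on chromosome 4. Of its windows 84.4% were unique, against 81.4% of the other autosomes. Of the unique windows 6.94% were listed and of the others 6.52%, and among unique windows alone the ratio was 0.539. Across the 39 regions of 5 Mb the unique share ranged from 70.6% to 90.8%, and the regions with more unique sequence had on the whole lower ratios (Spearman's rank correlation of -0.475). The sequence depth of the libraries, the DNA copy number of the chromosome in these cells and an input library were not analysed here, and a change in copy number and a change in the mark cannot be told apart from the listing.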

How the data were processed

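The libraries were made from FADU cells, 1 for each of 4 conditions. According to the methods, reads of 50 bases were sequenced on a HiSeq2000 and aligned to hg19 with Bowtie 0.12.7, and unique reads without duplicates were kept. MEDIPS is among the packages the methods name for the later steps, and how it was run is not given in the sources used here. The table the authors deposited gives the chromosome, start and stop of each 500 bp window and 4 columns of values whose names match no sample. These 4 columns were not used, and the unit of their values was not needed. Its file name mentions a minimum of 20, and what this applied to was not tested.

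Windows of 500 bp were laid on GRCh37, and those without an undetermined base were kept. The expected share of a window was the listed share on the other 21 autosomes at the same CpG number (40 or more as 1 class) and GC bases in steps of 25. Genes were the protein-coding genes of GENCODE version 44 lifted to GRCh37, with the canonical transcript as start and 3000 bp upstream as promoter. A window was counted by its midpoint. Unique sequence was found by exact matches of 5 sequences of 50 bases per window on both strands, for all windows of chromosome 4 and every 10th window elsewhere. Python 3.11.15, NumPy 2.4.6, pandas 2.3.3 and Matplotlib 3.10.9 were used. The computation of the region ratios was checked on simulated data with a factor set for each 5 Mb region, with a largest deviation of 0.060. This check is no test of the observed ratios.

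The chromosome, the gene lists and the comparisons were chosen with earlier results of these data known. Named are members of the lists, genes of the 3 highest and 3 lowest regions of 5 Mb, the 10 genes with the most listed windows, the 10 highest and 10 lowest ratios among genes of 100 kb or more, and genes at the longest runs and stretches. The genes with all promoter windows listed and the USP17L genes were named after their values were seen. Some genes and a sequence that these rules pick are not reported here.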

Additional observations from a re-analysis of the deposited data

How the results depend on the processing

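The ratio of chromosome 4, 0.521, stayed below 1 under each alternative. It was 0.469 with the expected share from CpG number alone, 0.374 without composition, 0.555 in windows with 5 or more CpG sites, 0.491 without the outer 5 Mb of each arm and 0.520 without 5 kb around start sites. Alternatives chosen after seeing the data gave 0.539 in unique sequence, 0.575 with the expected share from chromosomes 3, 13 and 5, and 0.474 outside the first 10 Mb. The short arm's ratio was 1.35 times that of the long arm, 1.54 with CpG number alone, 2.00 without composition, 1.21 without the outer 5 Mb of each arm and 1.13 without the first and last 10 Mb. The ratio just downstream of start sites was 0.422 and 0.720 without composition, and the longest run was 24.0 kb and 43.5 kb when runs were joined over 1 unlisted window. The cause of these differences was not tested. The median ratio of the regions, 0.462 at 5 Mb, ranged from 0.325 to 0.478, and the number of genes with a listed promoter window, 432, from 347 with a shorter promoter to 481 with a longer one. The alternative that keeps windows with few repeats was not run, because the reference sequence used here does not mark repeats. No paired analysis was possible because no library value could be used.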
